A study of Mus musculus with 6 samples.

Results

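The core circadian clock loop was examined in colon RNA-seq libraries through 10 genes: the activators Arntl, Clock and Npas2, the repressors Per1, Per2, Per3, Cry1 and Cry2, and the REV-ERB receptor genes Nr1d1 and Nr1d2. The 10 genes were taken by symbol from count tables that list 24517 genes, all 10 were found, and all 10 passed the filter on low counts. They were chosen with read counts of these same libraries known, so their levels and differences between genotypes are given as a description. Of the tests over all genes, only the number of members past each threshold is given, beside the share of all genes, and p-values, all two-sided, are printed only for other genes.

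The clock is a feedback loop of transcription that runs through the day in most tissues, including the gut. BMAL1, the protein of Arntl, pairs with CLOCK or its relative NPAS2, binds E-box sequences and switches on the Per, Cry and Nr1d genes. PER and CRY proteins then hold back the activators, while the REV-ERB receptors repress Arntl, Npas2 and Clock through sites that they share with the ROR activators. Arntl and Npas2 transcripts therefore peak at other hours than those of the Per and Nr1d genes, and the level of each gene in a single sample depends on the time of collection.

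The libraries came from mouse colon, 3 per genotype, each from a separate sample per the labels. The mice labelled NSD2∆IE, here Nsd2ΔIE, were made by crossing floxed Nsd2 mice with Villin-Cre mice, so NSD2, an H3K36 dimethyltransferase, was deleted only where the Villin promoter is active, in the intestinal epithelium, while the tissue sequenced also holds muscle, nerve, fat and immune cells. The Nsd2fl/fl controls carry the floxed gene. All mice had a C57BL/6J background, received HFCD, a diet rich in fat and cholesterol, over 16 weeks according to the labels (a longer period in the study's methods) and lived in a light/dark cycle. The labels give no age, and the hour at which each mouse was sampled is not given in the sources used here, so whether it differed between the genotypes was not tested.

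Library totals ranged from 38041832 to 38604680 counts. Nsd2 itself was at 47.8 to 68.9 CPM (counts scaled to library size with TMM factors) in Nsd2fl/fl and at 23.1 to 27.5 CPM in Nsd2ΔIE. All 3 Nsd2fl/fl libraries held 0 to 4 Xist counts and 5058 to 6110 counts of 4 Y-linked genes. All 3 Nsd2ΔIE libraries held 21217 to 24234 Xist counts and 0 to 1 Y-linked counts, although the study's methods describe male mice, so sex and genotype cannot be told apart in any comparison here. The 8 epithelial markers were present in every library, with summed levels of 9802 to 17308 CPM. The libraries also fell into 2 sets along the first principal component of all genes, with Hoxb13, a gene of the distal colon, at 310 to 365 CPM in Nsd2fl/fl replicates 1 and 3 and Nsd2ΔIE replicate 1, and at 0.706 to 26.2 CPM in the others. Values within each set are given with the results that they touch.

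The activators were all lower in Nsd2ΔIE. Arntl (chromosome 7, 113207465 to 113314126, GRCm38) was at 17.2, 32.4 and 38.8 CPM in Nsd2fl/fl replicates 1 to 3 and at 14.5, 8.96 and 6.53 CPM in Nsd2ΔIE replicates 1 to 3. The groups did not overlap, although Nsd2fl/fl replicate 1 and Nsd2ΔIE replicate 1 were close. The means were 29.5 ± 11.1 and 9.999 ± 4.09 CPM (SD, n = 3 for each genotype). The log2 fold change was -1.56 (SE 0.391), or 2.94-fold lower in Nsd2ΔIE. In whole tissue, fewer cells of a type and less RNA per cell cannot be told apart. Npas2 (chromosome 1, 39193731 to 39363236), which can stand in for CLOCK as the partner of BMAL1, was at 15.8, 37.7 and 24.9 CPM in Nsd2fl/fl and at 6.38, 9.03 and 5.38 CPM in Nsd2ΔIE. Every Nsd2ΔIE value lay well below the lowest Nsd2fl/fl value. Its log2 fold change of -1.91 (SE 0.355), or 3.77-fold lower, was the largest in size among the 10 genes. Clock (chromosome 5, 76209868 to 76304792), whose transcript is known to cycle little in many tissues, was at 112, 82.7 and 116 CPM in Nsd2fl/fl and at 90.4, 72.7 and 73.3 CPM in Nsd2ΔIE. Here the groups overlapped, since Nsd2fl/fl replicate 2 lay below Nsd2ΔIE replicate 1, and the log2 fold change was -0.39 (SE 0.165).

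Arntl is known as a target of REV-ERB and ROR factors, which bind the letters AGGTCA behind a short AT-rich stretch. The window printed here runs from 250 bases before to 50 bases after an Arntl start (RefSeq, GRCm38.p6, chr7:113207261-113207560, plus strand). It is shown because it holds, in capitals, the core TAGGTCA of such a site, the only 1 found in the windows of the 9 members that had an entry. The core, searched as TAGGTCA or TGGGTCA on both strands, occurs in 6.45% of all 32851 windows of this length, so its presence is a description and no evidence of binding.
Arntl: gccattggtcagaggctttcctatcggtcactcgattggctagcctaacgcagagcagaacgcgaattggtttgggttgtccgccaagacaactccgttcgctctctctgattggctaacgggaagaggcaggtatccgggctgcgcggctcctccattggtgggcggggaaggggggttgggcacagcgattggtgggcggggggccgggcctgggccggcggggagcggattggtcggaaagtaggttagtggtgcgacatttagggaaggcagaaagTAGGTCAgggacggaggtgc

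The PER genes were higher in Nsd2ΔIE, with overlap in each case. Per1 (chromosome 11, 69095217 to 69109960), which also answers to hormones and light, was at 54.5, 34.0 and 32.7 CPM in Nsd2fl/fl and at 72.4, 49.98 and 64.4 CPM in Nsd2ΔIE, a log2 fold change of 0.62 (SE 0.238). Per2 (chromosome 1, 91415982 to 91459324), a central repressor of the loop, was at 64.1, 34.4 and 41.9 CPM in Nsd2fl/fl and at 102, 60.8 and 74.1 CPM in Nsd2ΔIE, a log2 fold change of 0.75 (SE 0.281). In both genes the overlap came from a single pair, Nsd2fl/fl replicate 1 above Nsd2ΔIE replicate 2. Per3 (chromosome 4, 151003652 to 151044665), the member of the family least needed for rhythm, was at 52.5, 27.0 and 16.3 CPM in Nsd2fl/fl and at 66.6, 42.2 and 51.2 CPM in Nsd2ΔIE. Nsd2fl/fl replicate 1 lay above Nsd2ΔIE replicates 2 and 3, and the log2 fold change was 0.74 (SE 0.414). Without Nsd2fl/fl replicate 1 the 3 log2 fold changes were 0.90, 1.05 and 1.30, and without Nsd2fl/fl replicate 3 that of Per3 was 0.42.

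The Per1 and Per3 windows are shown for the clock motifs that they hold, in capitals. The Per1 window (chr11:69098699-69098998, plus strand) has an E-box, CACGTG, the site of the BMAL1 pairs, and the Per3 window (chr4:151044616-151044915, minus strand) has a pair of D-boxes, TTATGTAA, the site of DBP, TEF, HLF and NFIL3. An E-box occurs in 7.15% and a D-box in 0.938% of all windows, searched on both strands. For Per2 no promoter is shown.
Per1: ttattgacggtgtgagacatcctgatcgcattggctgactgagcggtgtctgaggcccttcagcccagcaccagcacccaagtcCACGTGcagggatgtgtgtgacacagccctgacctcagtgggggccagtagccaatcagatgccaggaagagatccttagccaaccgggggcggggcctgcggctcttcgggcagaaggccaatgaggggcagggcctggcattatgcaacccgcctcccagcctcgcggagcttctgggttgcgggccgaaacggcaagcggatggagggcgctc
Per3: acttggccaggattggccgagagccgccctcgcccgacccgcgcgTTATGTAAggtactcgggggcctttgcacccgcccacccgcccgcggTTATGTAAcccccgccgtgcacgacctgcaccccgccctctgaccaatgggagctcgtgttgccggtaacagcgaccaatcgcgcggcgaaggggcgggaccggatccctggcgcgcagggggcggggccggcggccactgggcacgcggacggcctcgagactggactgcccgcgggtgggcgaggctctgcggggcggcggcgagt

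The CRY genes differed from each other. Cry1 (chromosome 10, 85131700 to 85185064), whose product closes the loop late in the cycle, was at 11.3, 26.6 and 19.8 CPM in Nsd2fl/fl and at 25.3, 19.9 and 18.5 CPM in Nsd2ΔIE. The groups overlapped fully, with the Nsd2ΔIE values inside the range of the controls. Its log2 fold change was 0.14 (SE 0.306), and it turned to -0.13 without Nsd2fl/fl replicate 1, the only change of sign among the 10 genes over 15 alternatives. It was 0.45 without Nsd2fl/fl replicate 2, 0.23 without Nsd2ΔIE replicate 3 and 0.0081 without Nsd2ΔIE replicate 1. Cry2 (chromosome 2, 92403646 to 92434043), a CRY with a weaker rhythm in most tissues, was at 37.2, 38.9 and 18.4 CPM in Nsd2fl/fl and at 50.6, 42.2 and 40.6 CPM in Nsd2ΔIE. The groups did not overlap, but only Nsd2fl/fl replicate 3 stood well apart, and without it the log2 fold change of 0.50 (SE 0.281) was 0.23. Within the sets defined by the first principal component, the log2 difference was 0.95 for Cry2 and 0.75 for Cry1 in the set with high Hoxb13 (2 Nsd2fl/fl and 1 Nsd2ΔIE libraries). It was 0.09 and -0.47 in the other set (1 and 2 libraries). Cry2 shares 295 exonic bases with D930015M05Rik on the opposite strand, and the strand setting of the counting is not given in the sources used here, so reads in that stretch cannot be told apart.

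The Cry1 window (chr10:85185005-85185304, minus strand) is shown as the only 1 among the members with both an E-box, CACGTG, and the related E′-box, CACGTT, which reads AACGTG on this strand. An E′-box occurs in 4.68% of all windows. Of the 9 members with a window, 2 held an E-box, 3 an E′-box, 1 a D-box and 1 the REV-ERB core in at least 1 window. None held the cAMP response element TGACGTCA (1.79% of all windows). These counts are per gene, and Clock had 3 windows and Arntl and Per1 2 each, while the shares of all windows are per window. The 300 bases searched leave out more distant sites.
Cry1: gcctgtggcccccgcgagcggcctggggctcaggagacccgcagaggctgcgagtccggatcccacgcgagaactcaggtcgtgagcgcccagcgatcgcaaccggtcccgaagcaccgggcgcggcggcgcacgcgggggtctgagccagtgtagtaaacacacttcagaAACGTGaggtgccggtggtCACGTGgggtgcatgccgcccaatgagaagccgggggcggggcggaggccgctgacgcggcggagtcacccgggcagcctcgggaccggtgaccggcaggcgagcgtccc

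The REV-ERB genes were split. Nr1d2 (chromosome 14, 18204054 to 18239127), the gene of REV-ERBβ, was at 111.3, 80.5 and 61.4 CPM in Nsd2fl/fl and at 123, 135 and 111.4 CPM in Nsd2ΔIE. Its groups were separated by the smallest margin, between 111.3 and 111.4 CPM, and the log2 fold change was 0.55 (SE 0.218), or 0.36 without Nsd2fl/fl replicate 3. Nr1d1 (chromosome 11, 98767932 to 98775333), the gene of REV-ERBα, was at 145, 134 and 83.2 CPM in Nsd2fl/fl and at 90.2, 105 and 71.6 CPM in Nsd2ΔIE. Unlike the other targets of the activators on the list, Nr1d1 had lower values in Nsd2ΔIE. Its log2 fold change was -0.44 (SE 0.239), and the groups overlapped, since Nsd2fl/fl replicate 3 lay below 2 Nsd2ΔIE libraries. Without Nsd2fl/fl replicate 1 it was -0.29. Nr1d1 shares 263 exonic bases with Thra, a thyroid hormone receptor gene on the other strand, whose own counts could take up or give reads there. The Nr1d1 window (chr11:98775328-98775627, minus strand) is shown for its E′-box beside the start, in capitals as AACGTG.
Nr1d1: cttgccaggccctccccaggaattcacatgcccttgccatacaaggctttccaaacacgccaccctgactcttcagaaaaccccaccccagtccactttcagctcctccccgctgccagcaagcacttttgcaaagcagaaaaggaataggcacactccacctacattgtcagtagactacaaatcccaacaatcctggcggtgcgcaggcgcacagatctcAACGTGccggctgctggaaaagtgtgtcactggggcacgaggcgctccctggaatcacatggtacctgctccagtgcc

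The read ratio of Nr1d1 to Nr1d2, which needs no scaling between libraries, separated the groups. It was 1.30, 1.67 and 1.35 in Nsd2fl/fl, against 0.732, 0.777 and 0.642 in Nsd2ΔIE, so Nr1d1 reads outnumbered Nr1d2 reads in each control and fell short of them in each knockout. The group means differed 2.01-fold (1.44 ± 0.199 against 0.717 ± 0.0684, SD, n = 3 for each genotype), more than the spread within either group. The ratio of Nr1d1 to Thra was likewise higher in every control, at 1.57 to 2.00 against 0.937 to 1.37. The ratio of Npas2 to Clock was 0.141, 0.456 and 0.214 in Nsd2fl/fl, against 0.0706, 0.124 and 0.0733 in Nsd2ΔIE, also without overlap. The ratio of Arntl to Clock overlapped, because Nsd2fl/fl replicate 1 (0.154) lay below Nsd2ΔIE replicate 1 (0.161). Inside the PER family the groups overlapped, with Per2 to Per1 between 1.01 and 1.41 and Per3 to Per1 between 0.497 and 0.965 over the 6 libraries. Among the pairs compared, the ratio with the widest range was that of Arntl to Nr1d2, an activator against a gene that it drives, with 0.154, 0.402 and 0.631 in Nsd2fl/fl, against 0.118, 0.0664 and 0.0586 in Nsd2ΔIE, a 10.8-fold range over the 6 libraries.

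**Figure D1:**
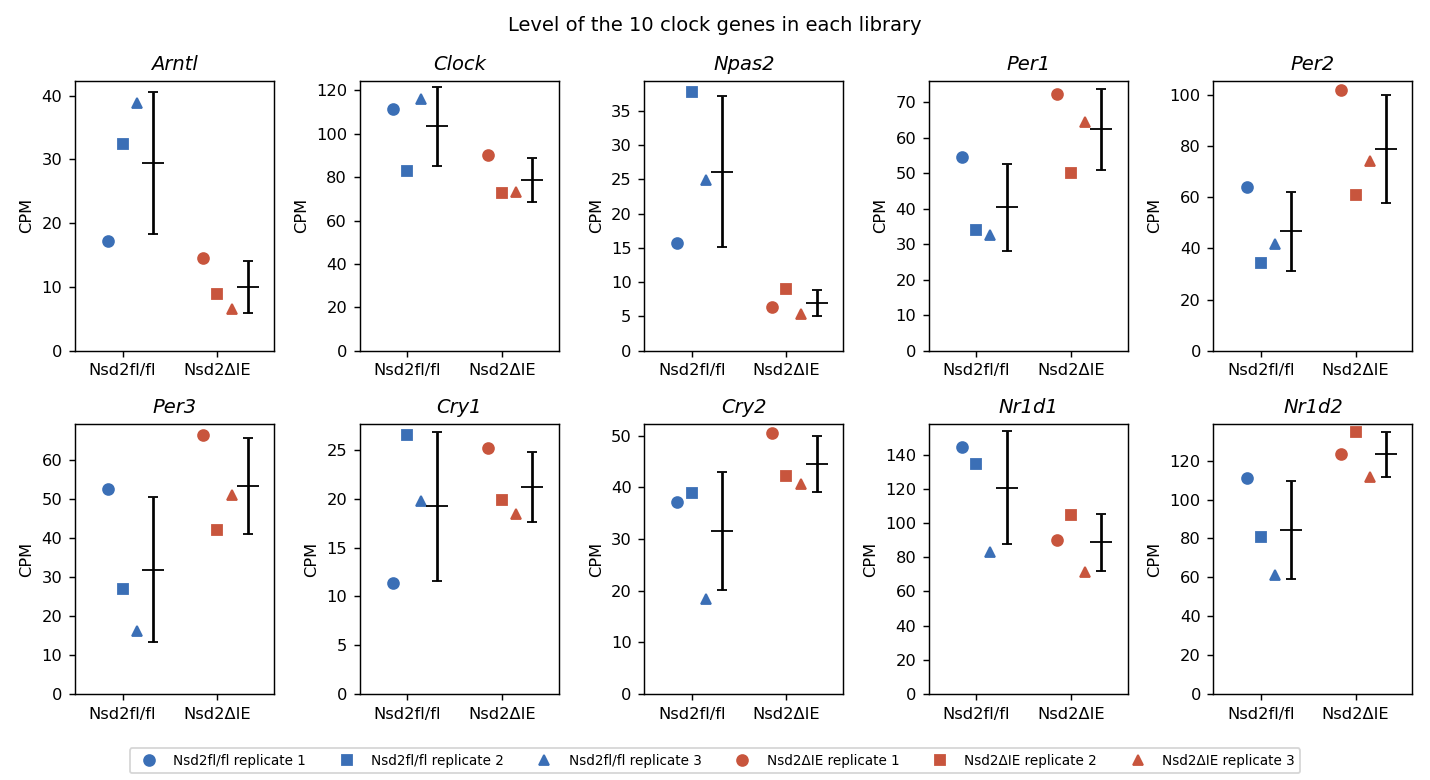
Level of each of the 10 clock genes in CPM (y axis, from 0, own scale per gene) by genotype (x axis), with circles, squares and triangles for replicates 1, 2 and 3 and black bars for the mean ± SD (n = 3). Arntl and Npas2 are lower in all Nsd2ΔIE libraries, and in the controls replicate 1 is the highest for the PER and REV-ERB genes.

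**Figure D2:**
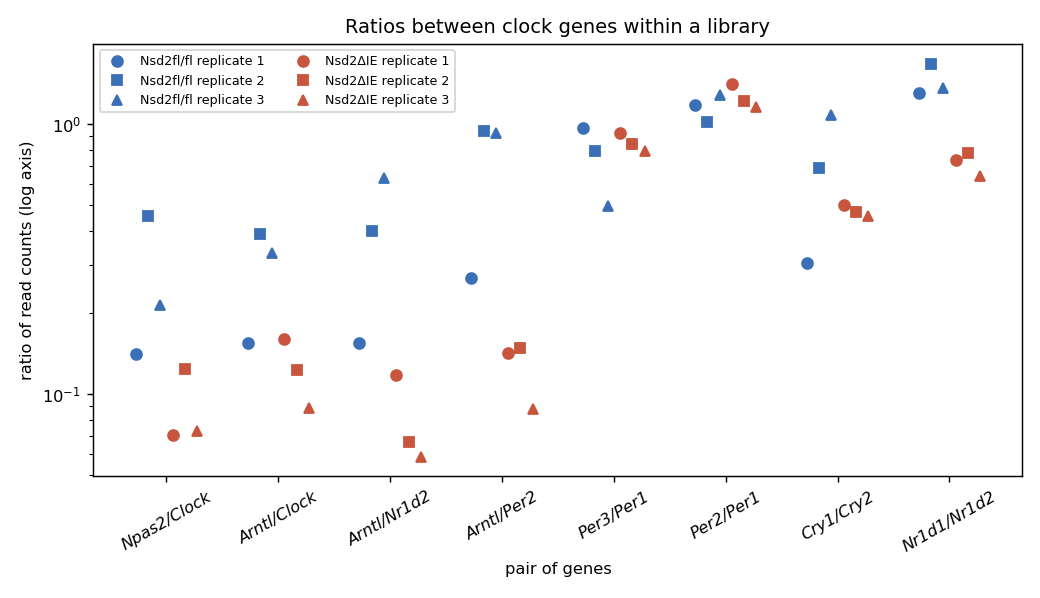
Ratio of read counts between pairs of clock genes within each library (y axis, log axis) for the pairs on the x axis, with colours for genotype and symbols for replicate. The ratio of Nr1d1 to Nr1d2 lies above 1 in the 3 Nsd2fl/fl libraries and below 1 in the 3 Nsd2ΔIE libraries.

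Counted against all genes, 0 of the 10 members had an adjusted p under 0.05 with the quasi-likelihood test of edgeR, where 0.0306% of genes did (0.00612% higher and 0.0245% lower in Nsd2ΔIE), and 6 had an unadjusted p under 0.05, where 11.1% did. With DESeq2, 2 members had an adjusted p under 0.05, against 2.78% of genes (2.47% higher and 0.312% lower in Nsd2ΔIE). Both of these members were lower. At the threshold of the study, here an unadjusted p under 0.05 and a log2 fold change over 0.32 in size, there were 3 lower members (2.21% of genes) and 3 higher members (8.05% of genes). Groups without overlap were seen in 4 members, against 18.7% of genes, with 2 lower members (7.28% of genes) and 2 higher members (11.4% of genes). Since the members were chosen with this comparison known, nothing is read from these shares. The 6 members at the threshold of the study became 3 without Nsd2fl/fl replicate 2, 3 without Nsd2fl/fl replicate 3, 3 without Nsd2ΔIE replicate 1 and 2 without Nsd2ΔIE replicate 3. The median log2 fold change of the 10 genes was 0.32, against -0.04 for all genes tested, and it hides a split of 6 higher and 4 lower members.

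The arms of the loop were then set against each other within each library. The mean log2 CPM of the activators was 4.97, 5.54 and 5.59 in Nsd2fl/fl replicates 1 to 3, against 4.35, 4.18 and 3.79 in Nsd2ΔIE replicates 1 to 3. That of the PER and REV-ERB genes (Per1 to Per3, Nr1d1 and Nr1d2) was 6.29, 5.67 and 5.35 in Nsd2fl/fl, against 6.47, 6.15 and 6.17 in Nsd2ΔIE. The PER and REV-ERB means overlapped, with Nsd2fl/fl replicate 1 above Nsd2ΔIE replicates 2 and 3, and Nr1d1 within them was lower in Nsd2ΔIE. The group difference was -1.26 log2 units for the activators and 0.49 for the PER and REV-ERB genes. The control with the lowest activators, replicate 1, had the highest PER and REV-ERB mean of the controls. The arm difference, activators minus PER and REV-ERB genes, was -1.33, -0.13 and 0.24 in Nsd2fl/fl, against -2.12, -1.97 and -2.39 in Nsd2ΔIE, without overlap. The group means were -0.41 ± 0.820 and -2.16 ± 0.210 (SD, n = 3 for each genotype). Their difference was -1.75 log2 units, and it ranged from -2.22 without Nsd2fl/fl replicate 1 to -1.43 without Nsd2fl/fl replicate 3. The mean of Cry1 and Cry2, kept out of both arms, was 4.37, 5.01 and 4.26 in the controls against 5.16, 4.86 and 4.78 in the knockouts, with overlap.

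**Figure D3:**
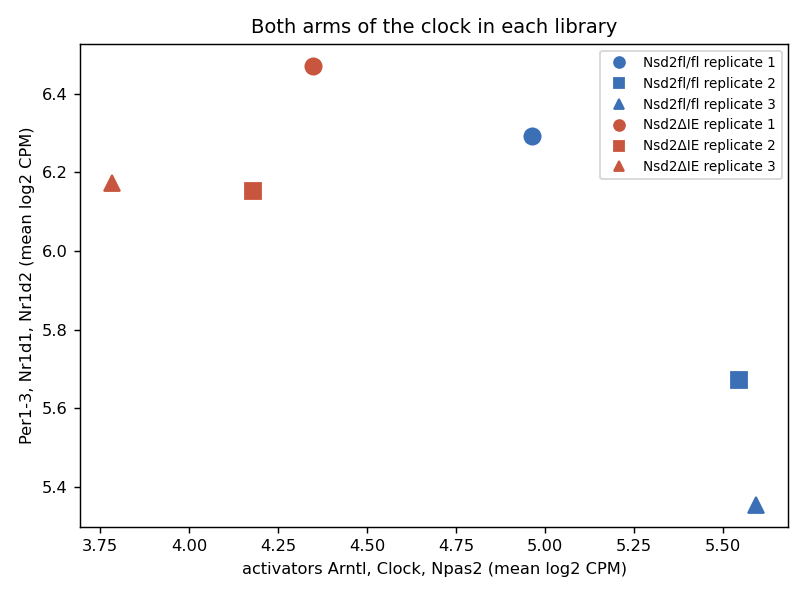
Mean log2 CPM of Per1 to Per3, Nr1d1 and Nr1d2 (y axis) against that of Arntl, Clock and Npas2 (x axis), 1 point per library, with colours for genotype and symbols for replicate. The 3 Nsd2ΔIE libraries lie to the left of all Nsd2fl/fl libraries, and Nsd2fl/fl replicate 1 lies nearest to them (4.97 on the x axis and 6.29 on the y axis).

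The members also differed between controls, where genotype does not. Between Nsd2fl/fl replicates 1 and 3, Arntl was 2.26-fold and Npas2 1.58-fold higher in replicate 3. In the other direction, Per3 was 3.23-fold, Cry2 2.02-fold, Nr1d2 1.81-fold, Nr1d1 1.74-fold, Per1 1.67-fold and Per2 1.53-fold higher in replicate 1. Clock differed 1.04-fold and Cry1 was 1.74-fold higher in replicate 3. These libraries had close Hoxb13 levels (365 and 340 CPM) and smooth muscle marker sums (4303 and 4296 CPM). In proportion, their sums of epithelial (9802 and 12238 CPM), enteric nervous system (77.1 and 60.1 CPM) and adipocyte markers (25.6 and 30.5 CPM) differed more. The part of tissue make-up in the differences between these controls was not tested. Between replicates 1 and 2, Arntl, Npas2 and Cry1 were likewise higher in replicate 2, and the PER and REV-ERB genes in replicate 1. Cry2 and Clock went the other way here, with Cry2 higher in replicate 2 and Clock in replicate 1. Between replicates 2 and 3, Arntl and Npas2 themselves went opposite ways. Arntl stood against Per1, Per3, Nr1d1 and Nr1d2 but not Per2, and Npas2 against Per2 only. There Npas2, Per1, Per3, Cry1, Cry2, Nr1d1 and Nr1d2 were higher in replicate 2, and Arntl, Clock and Per2 in replicate 3. For all 10 members the SD of log2 CPM was larger in Nsd2fl/fl than in Nsd2ΔIE, as it was for 73.8% of all genes tested. The median SD of the members was 0.530 in Nsd2fl/fl and 0.275 in Nsd2ΔIE, against 0.283 and 0.172 over all genes tested. Over the 9299 genes with an average level at least that of the lowest member, it was 0.215 and 0.118. Of those, 77.9% had the larger SD in Nsd2fl/fl.

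Markers of muscle, nerve and fat had higher sums in every Nsd2ΔIE library than in any Nsd2fl/fl library. The summed level of 8 smooth muscle markers was 1631 to 4303 CPM in Nsd2fl/fl and 5366 to 11562 CPM in Nsd2ΔIE, and 7 of the 8 were higher without overlap between the groups, against 11.4% of all genes. The sum of 8 enteric nervous system markers was 46.9 to 77.1 CPM against 101 to 130 CPM, with 8 of 8 higher without overlap. The 8 adipocyte markers summed to 25.6 to 34.1 CPM against 53.5 to 122 CPM, with 5 higher without overlap and Adipoq, Plin1, Lep and Retn at 0 in at least 1 library. For the 8 epithelial markers the sums overlapped, with 9802 to 17308 CPM against 9841 to 11162 CPM, but all 8 had a log2 fold change below 0 (-0.42 to -0.24, median -0.31), and 2 were lower without overlap, against 7.28% of all genes. The part of these differences in the clock values was not tested. Nsd2fl/fl replicate 1 and Nsd2ΔIE replicate 1, with high Hoxb13 in both and smooth muscle sums of 4303 and 5366 CPM, had the closest muscle sums of any pair across genotypes. Between them Npas2 was 2.47-fold, Nr1d1 1.61-fold, Clock 1.23-fold and Arntl 1.19-fold higher in the control. Cry1 was 2.23-fold, Per2 1.59-fold, Cry2 1.36-fold, Per1 1.33-fold, Per3 1.27-fold and Nr1d2 1.11-fold higher in the knockout.

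Within the sets of libraries defined by the first principal component, the direction of 9 members was the same in both sets, with Cry1 as the exception. The log2 difference was -0.83 and -2.07 for Arntl, -1.62 and -2.43 for Npas2 and -0.33 and -0.18 for Clock, in the sets with high and low Hoxb13. It was 0.78 and 0.74 for Per1, 0.98 and 0.96 for Per2, 1.19 and 0.79 for Per3, 0.58 and 0.61 for Nr1d2 and -0.28 and -0.63 for Nr1d1. Each set held 1 genotype with 1 library only, so these values carry no error.

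Levels of different genes were compared per length, as FPKM (fragments per kilobase of gene, scaled to library size). Nr1d1 ranked first in both genotypes, at 42.0 ± 12.7 FPKM in Nsd2fl/fl and 33.5 ± 5.48 FPKM in Nsd2ΔIE (SD, n = 3 for each genotype), followed by Nr1d2 at 16.8 ± 5.83 and 26.5 ± 1.90 FPKM. They differed by more than the sum of their SDs in Nsd2fl/fl but not in Nsd2ΔIE. In Nsd2fl/fl, Clock (9.81 ± 1.97 FPKM), Per2 (7.42 ± 2.84), Cry2 (7.32 ± 2.74), Npas2 (5.80 ± 2.24), Cry1 (4.57 ± 1.65), Per3 (4.57 ± 2.90) and Per1 (4.55 ± 1.63) came next, and no neighbours among these 7 differed by more than the sum of their SDs. In Nsd2ΔIE, Per2 (13.5 ± 3.50 FPKM), Cry2 (11.2 ± 1.18), Per3 (8.19 ± 1.85), Clock (8.12 ± 0.941), Per1 (7.59 ± 1.42) and Cry1 (5.56 ± 0.843) followed, again with neighbours closer than the sum of their SDs, and all stood above Npas2 (1.69 ± 0.428) by more than that sum. Arntl ranked last in both genotypes, at 1.45 ± 0.498 and 0.539 ± 0.211 FPKM, but its FPKM had been computed with a gene length of 19267 bases, while its longest protein-coding transcript in GENCODE M21 has 2976. Computed with the length of that transcript, the FPKM of Arntl was 9.36 ± 3.23 in Nsd2fl/fl and 3.49 ± 1.37 in Nsd2ΔIE, which ranked it 4 and 9 of 10. For Per1 the lengths were 8573 and 4671 bases, and for the other 8 members the ratio of the lengths lay between 1.01 and 1.31. By transcript length Per1 was at 8.36 ± 2.98 in Nsd2fl/fl and 13.9 ± 2.61 in Nsd2ΔIE. That ranked it 5 and 4 of 10, in place of 9 and 7.

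Other genes of the clock were tested in the same fit. Of 22 listed genes, 21 were tested, 13 had a log2 fold change above 0 and 8 below 0, and 0 had an adjusted p under 0.05 (0.0306% of all genes). An unadjusted p under 0.05 was found for 5 higher genes (8.15% of all genes) and 1 lower gene (2.96%). Groups without overlap were seen in 7 higher genes (11.4% of all genes) and 0 lower genes (7.28%). DESeq2 gave an adjusted p under 0.05 for 3 genes, Hlf, Usp2 and Wee1, against 2.78% of all genes. The number at an unadjusted p under 0.05 was 11 without Nsd2fl/fl replicate 1. Among the PAR bZIP factors, which bind D-boxes and pass the rhythm on to output genes, Hlf was at 19.8, 15.1 and 10.6 CPM in Nsd2fl/fl and at 30.9, 33.2 and 30.1 CPM in Nsd2ΔIE. The difference was 1.05 on the log2 scale (SE 0.223), and its adjusted p by the quasi-likelihood test of edgeR was 0.302 (0.00511 to 0.99 over the alternatives, the lowest with DESeq2). Every Hlf value was higher in Nsd2ΔIE than in Nsd2fl/fl. Nfil3, the repressor at the same sites, was at 3.64, 8.53 and 9.07 CPM against 2.70, 4.29 and 4.15 CPM, a log2 fold change of -0.93 (SE 0.385, edgeR adjusted p = 0.441), with Nsd2fl/fl replicate 1 inside the Nsd2ΔIE range.

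The ROR receptors bind the same sites as the REV-ERB receptors and activate from them. Rora had a log2 fold change of 0.64 (SE 0.213, edgeR adjusted p = 0.361) and was higher in 3 of 3 Nsd2ΔIE libraries. The margin was small, with 9.51 CPM in Nsd2ΔIE replicate 1 and 9.32 CPM in Nsd2fl/fl replicate 1. Rorb did not pass the filter on low counts. Of the E-box repressors, Bhlhe41 had a log2 fold change of 0.65 (SE 0.185, edgeR adjusted p = 0.312) and Ciart, the gene of CHRONO, of 0.74 (SE 0.347, edgeR adjusted p = 0.492), both higher in 3 of 3 Nsd2ΔIE libraries. Without Nsd2fl/fl replicate 3, Ciart had 0.44. The 7 genes for kinases and F-box proteins, which set the stability of PER and CRY, had log2 fold changes between -0.23 (Gsk3b, edgeR adjusted p = 0.497) and 0.49. The value of 0.49 (SE 0.554) came from a gene with only 6 to 34 counts per library. Of these 7 genes, 0 had an unadjusted p under 0.05 by edgeR (11.1% of all genes) and 0 an adjusted p under 0.05 by DESeq2 (2.78%). Csnk1e, one of these kinases, had 0.24 (SE 0.152, edgeR adjusted p = 0.605), and 0.11 without Nsd2fl/fl replicate 3. Among partners and outputs, Usp2, a deubiquitinase with a strong daily rhythm, had 0.80 (SE 0.210, edgeR adjusted p = 0.307) and Wee1, a cell cycle kinase driven through E-boxes, had 0.41 (SE 0.106, edgeR adjusted p = 0.307), each higher in 3 of 3 Nsd2ΔIE libraries.

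**Figure D4:**
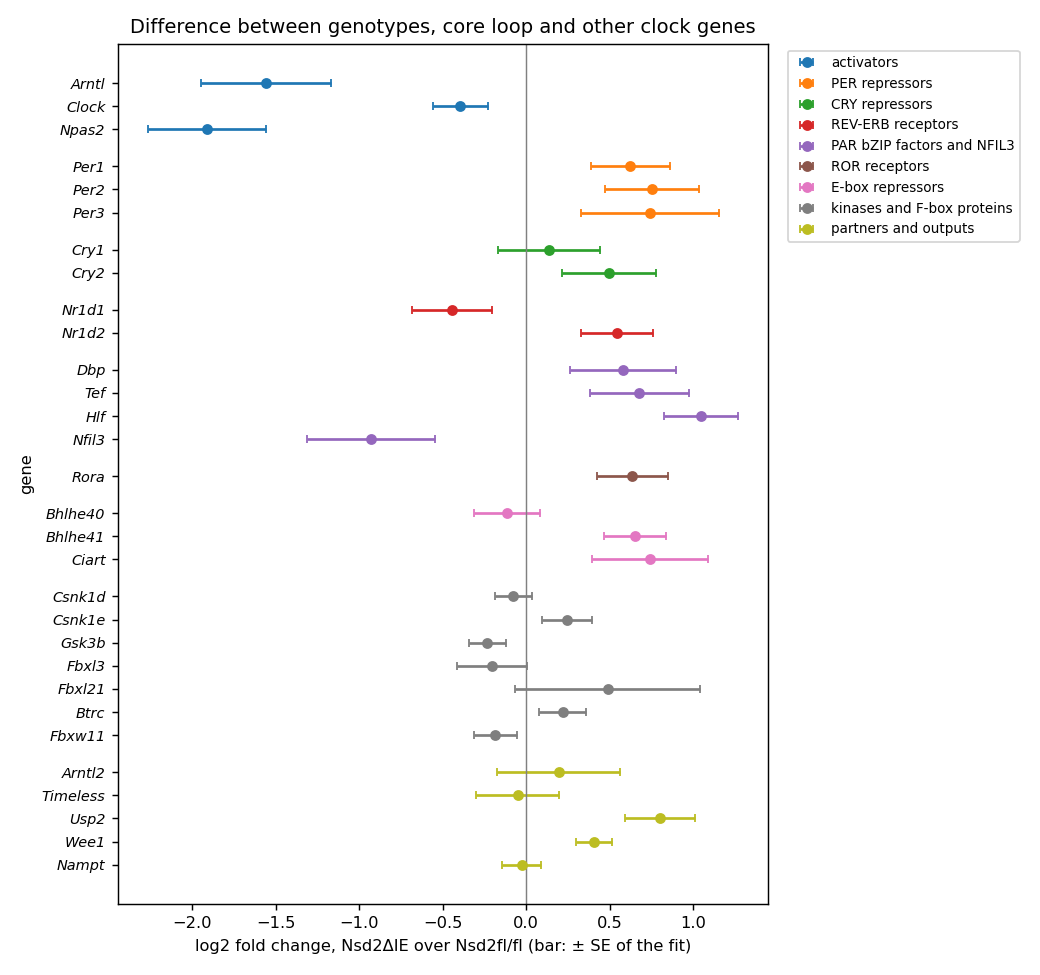
Log2 fold change of Nsd2ΔIE over Nsd2fl/fl (x axis) with the SE of the fit over all genes (bars) for the 10 members and other clock genes (y axis), coloured by role. The activators and Nfil3 lie left of 0, the PER and PAR bZIP genes and Rora right of it, and the kinases and F-box proteins between -0.23 and 0.49.

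Per1 also answers to glucocorticoids and to the signals of immediate early genes, so these were set beside it. Of 9 glucocorticoid-responsive genes, 5 were higher and 4 lower, with a median log2 fold change of 0.13. By edgeR 1 had an unadjusted p under 0.05 (11.1% of all genes) and 0 an adjusted p under 0.05 (0.0306%). Sgk1, a kinase gene of sodium transport, was at 75.1, 76.8 and 101 CPM against 162, 119 and 146 CPM, a log2 fold change of 0.75 (SE 0.173, edgeR adjusted p = 0.302; DESeq2 adjusted p = 0.0116), and Dusp1 had one of 0.41 (SE 0.216, edgeR adjusted p = 0.55), which was 0.26 without Nsd2fl/fl replicate 3. Of 8 immediate early genes, 0 had an unadjusted p under 0.05 by edgeR (11.1% of all genes). By DESeq2 0 had an adjusted p under 0.05 (2.78% of all genes). The log2 fold change was 0.56 for Egr1 (SE 0.300, edgeR adjusted p = 0.555) and 1.10 for Fosb (SE 0.599, edgeR adjusted p = 0.558). Egr1 was at 0.86 without Nsd2fl/fl replicate 1, at 0.37 without Nsd2fl/fl replicate 3 and at 0.29 without Nsd2ΔIE replicate 3, and Fosb was at 0.66 without Nsd2ΔIE replicate 1. Whether these genes share their differences with Per1 was not tested.

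The genes whose log2 CPM over the 6 libraries was most like that of Arntl were ranked by Pearson's r among 13110 genes of sufficient level. The highest outside the members were Ly6g2 (r = 0.996), Ptcd2 (0.992), Cdx1 (0.991), Tirap (0.991) and Met (0.990). The lowest were Tafa5 (-0.998), Serpine2 (-0.996), Ptprs (-0.994), Rfx5 (-0.994) and Rora (-0.994). With only 6 libraries in 2 genotypes such values were common, as 248 genes had an r over 0.9 and 590 an r under -0.9. Among the members, Npas2 ranked 295th from the top (r = 0.891) and Clock 1788th (0.692), while Nr1d2 (-0.838), Per1 (-0.792), Per3 (-0.746), Per2 (-0.698) and Cry2 (-0.632) were negative. Nr1d1 (0.366) and Cry1 (0.194) were positive and far from both ends.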

How the data were processed

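RNA-seq of mouse colon comprised 3 Nsd2fl/fl and 3 Nsd2ΔIE libraries, grouped and numbered by the labels. The authors deposited a whole-number read count per gene and library, and an FPKM value per gene, computed by the authors from these counts, the column totals and a gene length. The submitters' processing notes name fastp, HISAT2, HTSeq, R 3.2.0 and the build mm10. The annotation and strand setting are not given in the sources used here. Counts of all genes were fitted with edgeR 4.0.16 in R 4.3.3 (filterByExpr, TMM factors, two-sided quasi-likelihood test, 16347 genes tested, Benjamini-Hochberg adjustment). The SE was derived from each log2 fold change and its F statistic (size over root F). Log2 CPM used a prior count of 2. P-values set the difference between the genotypes, which is also one of sex, against the spread between these samples. That spread includes the split along the first principal component. The lowest member count was 223, so the spread between libraries, not depth, limited precision. Library pairs differed beyond sampling noise (chi-square per degree of freedom at least 35.5). On simulated counts for this comparison (16092 genes), 77 of 100 genes with a 4-fold and 17 of 100 with a 2-fold change were called, beside 9 false calls.

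Alternatives were RLE and upper-quartile factors, library totals alone, DESeq2 1.42.0, limma 3.58.1 on log2(FPKM + 1) and log2(FPKM + 0.1), no filter, the replicate number as a block, the sign of the first principal component as a covariate, and each library left out. Gene models came from GENCODE M21 and promoter windows from RefSeq, both GRCm38. The members and lists were chosen with earlier results of these data known. Named genes were the members, 2 genes of smallest p per further list where none passed, and the 5 genes most and least like Arntl. The values of 1 gene under this rule are not reported here.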

Additional observations from a re-analysis of the deposited data

How the results depend on the processing

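The direction of 9 of the 10 members was the same in all 15 alternatives, and that of Cry1 in 14. With log2(FPKM + 1), the values of Arntl (-0.66) and Npas2 (-1.29) moved by more than 1 SD. With log2(FPKM + 0.1), where less is added to each FPKM, they were -1.27 and -1.67 and did not move that far. The arm difference kept its sign in the 9 alternatives run for it, with -1.26 for log2(FPKM + 1), and with -2.22 to -1.43 when a library was left out. DESeq2 called 455 genes in place of 5, among them 2 members and 3 other clock genes in place of 0. The cause was not tested. Leaving out a library gave 3 to 5 called genes (3 without Nsd2fl/fl replicate 1 or 3), 2 to 6 members at the threshold of the study and 4 to 11 other clock genes at an unadjusted p under 0.05. Over all genes at the threshold of the study, 1316 were higher and 675 to 1720 without a library (675 without Nsd2ΔIE replicate 3, 807 without Nsd2ΔIE replicate 2). The 361 lower genes became 108 with log2(FPKM + 1), 142 when only library totals were used, 138 with log2(FPKM + 0.1), 200 under upper-quartile factors, 607 with no filter, 543 with the principal component covariate and 146 (without Nsd2ΔIE replicate 3) to 747 (without Nsd2fl/fl replicate 1) when a library was left out. Library totals alone moved the median of all genes from -0.04 to 0.09. With the level per length of the longest protein-coding transcript, chosen after seeing the data, Arntl stood at 9.36 and 3.49 in place of 1.45 and 0.539.

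With the replicate number as a block, the lower genes numbered 602, the other clock genes at an unadjusted p under 0.05 numbered 10 in place of 6, and the members at the threshold of the study 9 in place of 6. The deviations of libraries of the same number correlated at 0.501, 0.643 and -0.166 for replicates 1, 2 and 3. Hoxb13 was high in both libraries of replicate 1, low in both of replicate 2 and split in replicate 3 (340 and 26.2 CPM). Replicate numbers were not treated as pairs.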
